A study of Mus musculus with 7 samples.

Results

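Expression of 8 genes that carry fatty acids into the cell, commit them to oxidation in the mitochondrion and steer fuel use was examined in the distal small intestine of mice on a normal or a low cystine diet. The 8 genes, Cd36, Fabp1, Fabp2, Cpt1a, Acadm, Acadl, Pdk4 and Angptl4, are known target genes of the PPAR nuclear receptors and were found by symbol among 38293 genes listed, of which 14869 had enough counts to be tested. All 8 were among the genes tested. RNA sequencing was done on scrapings of 7 mice, 4 fed normal cys and 3 fed low cys, 1 library per mouse. The study kept 8 mice per group, so the libraries are from a subset of each group.

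The mice were male C57BL/6NRJ, 8 weeks old and housed individually. All of them first received the control diet for 1 week and then the experimental diets for 2 weeks, and all were fasted for 4 h before tissue was taken. Normal cys held 0.38% cystine and low cys held 0.08%, with alanine making up the difference on a molar basis. Both diets were purified AIN93G-based feeds with 40% of energy from fat and little calcium, so the comparison is between levels of cystine on a fat-rich background. The tissue was the last of 4 equal parts of the small intestine, without the 1 cm kept for histology. By the methods, what was sequenced was mucosa, the lining cells together with the connective tissue and immune cells just beneath, without muscle wall. Markers of smooth muscle were nevertheless detected in every library. In such bulk tissue fewer cells of a type and less RNA per cell cannot be told apart.

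Libraries are named here as in the count table. The label of SI9 differs in form from the others, which end in SI4. What the labels stand for is not given in the sources used here. The normal cys libraries X17SI4, X32SI4, SI9 and X1SI4 held 19712355, 21410743, 21140505 and 22412703 counts. The low cys libraries X23SI4, X26SI4 and X10SI4 held 21942518, 15708368 and 14888760 counts. Levels are given as CPM, counts relative to the library total, after TMM scaling, and levels of different genes are compared only per kb of exon.

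Long-chain fatty acids enter enterocytes with the help of membrane proteins, are held in the cytosol by binding proteins and are activated to acyl-CoA. Carnitine palmitoyltransferase 1 controls their entry into the mitochondrion, where acyl-CoA dehydrogenases begin each round of beta-oxidation, and acetyl-CoA in excess can be turned into ketone bodies. PPAR-alpha and PPAR-delta, which bind DNA together with RXR, sense fatty acids and switch on genes of each of these steps in the intestine as in the liver.

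The tissue label was checked against markers. Fabp6, the ileal bile acid binding protein, averaged 10040 CPM per kb, and the 7 distal ileum markers together ranged from 5318 to 11840 CPM. The 6 markers of the proximal small intestine summed to 351.9, 471.8, 953.4 and 263.0 CPM in normal cys X17SI4, X32SI4, SI9 and X1SI4 and to 202.1, 243.6 and 677.5 CPM in low cys X23SI4, X26SI4 and X10SI4. The 10 enterocyte markers summed to 39450, 38310, 52240 and 48030 CPM in normal cys and to 24870, 35300 and 37750 CPM in low cys. Every low cys library lay below every normal cys library in this sum, the closest being X10SI4 at 37750 CPM and X32SI4 at 38310 CPM. This order depends on the scaling, with TMM factors of 1.0431 for X10SI4 and 0.9715 for X17SI4. By total counts only X10SI4 lies above X17SI4. Of single genes tested, 6.83% had libraries that did not overlap between the diets.

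Promoter sequences are shown for the 2 pairs of genes with the highest Pearson's r between their levels across the mice. RefSeq promoters (GRCm38.p6) were available for 7 of the 8 genes, all but Angptl4. Sequences run 5′ to 3′ on the strand of the gene and end before both the RefSeq and the GENCODE start of the gene, with motif matches in capitals. The stretch of Fabp1 is chr6:71199629-71199826 (+), that of Fabp2 chr3:122894822-122895071 (+), that of Cpt1a chr19:3323051-3323300 (+) and that of Pdk4 chr6:5496310-5496528 (-).
Fabp1: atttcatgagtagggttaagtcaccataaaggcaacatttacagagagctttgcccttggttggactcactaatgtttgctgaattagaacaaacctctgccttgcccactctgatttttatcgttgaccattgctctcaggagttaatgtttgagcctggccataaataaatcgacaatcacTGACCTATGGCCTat
Fabp2: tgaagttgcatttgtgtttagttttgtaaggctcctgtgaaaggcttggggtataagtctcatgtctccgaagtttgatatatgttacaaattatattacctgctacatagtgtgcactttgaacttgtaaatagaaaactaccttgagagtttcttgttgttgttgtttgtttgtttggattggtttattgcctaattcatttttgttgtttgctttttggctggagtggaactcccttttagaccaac
Cpt1a: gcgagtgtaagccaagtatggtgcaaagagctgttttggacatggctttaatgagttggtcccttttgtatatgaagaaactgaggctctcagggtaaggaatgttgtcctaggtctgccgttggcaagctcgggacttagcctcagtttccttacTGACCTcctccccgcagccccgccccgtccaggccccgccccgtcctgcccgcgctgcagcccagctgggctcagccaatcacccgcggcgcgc
Pdk4: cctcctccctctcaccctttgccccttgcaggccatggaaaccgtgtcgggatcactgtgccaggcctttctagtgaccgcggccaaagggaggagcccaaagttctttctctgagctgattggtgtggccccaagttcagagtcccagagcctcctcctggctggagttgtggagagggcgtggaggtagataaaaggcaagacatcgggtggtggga

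Searched on both strands, the nuclear receptor core site AGGTCA was present in 16.3% of 32851 RefSeq promoters, each 250 bases before to 50 bases after a start. In the stretches shown it appears on the reverse strand, as TGACCT. It was found in Fabp1, Cpt1a, Cd36 and Acadm and not in Fabp2, Acadl or Pdk4. The RefSeq promoter of Cd36, with its core site, lies inside the GENCODE gene. The paired site known as DR1, to which PPAR and RXR bind together, was searched as 2 copies of AGGNCA in the same direction with 1 base between them and was present in 0.381% of promoters. Among the 7 genes it was found in Fabp1 alone, as TGACCTATGGCCT beginning 67 bases before the RefSeq start, where it overlaps a core site. Fabp1 has another core site 9 bases before that start, which lies inside the GENCODE gene and is not shown. In Cpt1a the core site begins 94 bases before the start. These are matches of letters and not measured binding.

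None of the 8 genes differed between the diets in the edgeR quasi-likelihood test, with the smallest Benjamini-Hochberg adjusted p at 0.794. On average 4 of the genes were higher and 4 lower in low cys, and their median log2 fold change was 0.06, which ran from -0.09 (without X23SI4) to 0.21 (without X1SI4) over the fits without 1 library. Across all genes tested 0 of 14869 (0%) had an adjusted p under 0.05, 817 (5.49%) had an unadjusted p under 0.05, and 1015 (6.83%) had libraries that did not overlap between the diets. For the 8 genes each of these counts was 0. DESeq2 called 16 of all genes and 0 of the 8.

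The spread from mouse to mouse was wider for 5 of the genes than for the other 3. The highest library exceeded the lowest 15.4-fold for Pdk4, 8.09-fold for Cd36, 7.23-fold for Fabp1, 6.64-fold for Angptl4 and 6.59-fold for Fabp2. The dehydrogenases and Cpt1a had smaller ranges, with a highest level 1.53-fold above the lowest for Acadm, 1.67-fold for Cpt1a and 1.88-fold for Acadl. Among the 500 genes nearest in level, the spread within diets of Fabp1 and Pdk4 stood at percentile 99.8, of Angptl4 at 99.6, of Cd36 at 99.0 and of Fabp2 at 94.6. For Acadl it was at 75.2, for Cpt1a at 69.4 and for Acadm at 57.4.

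**Figure D1:**
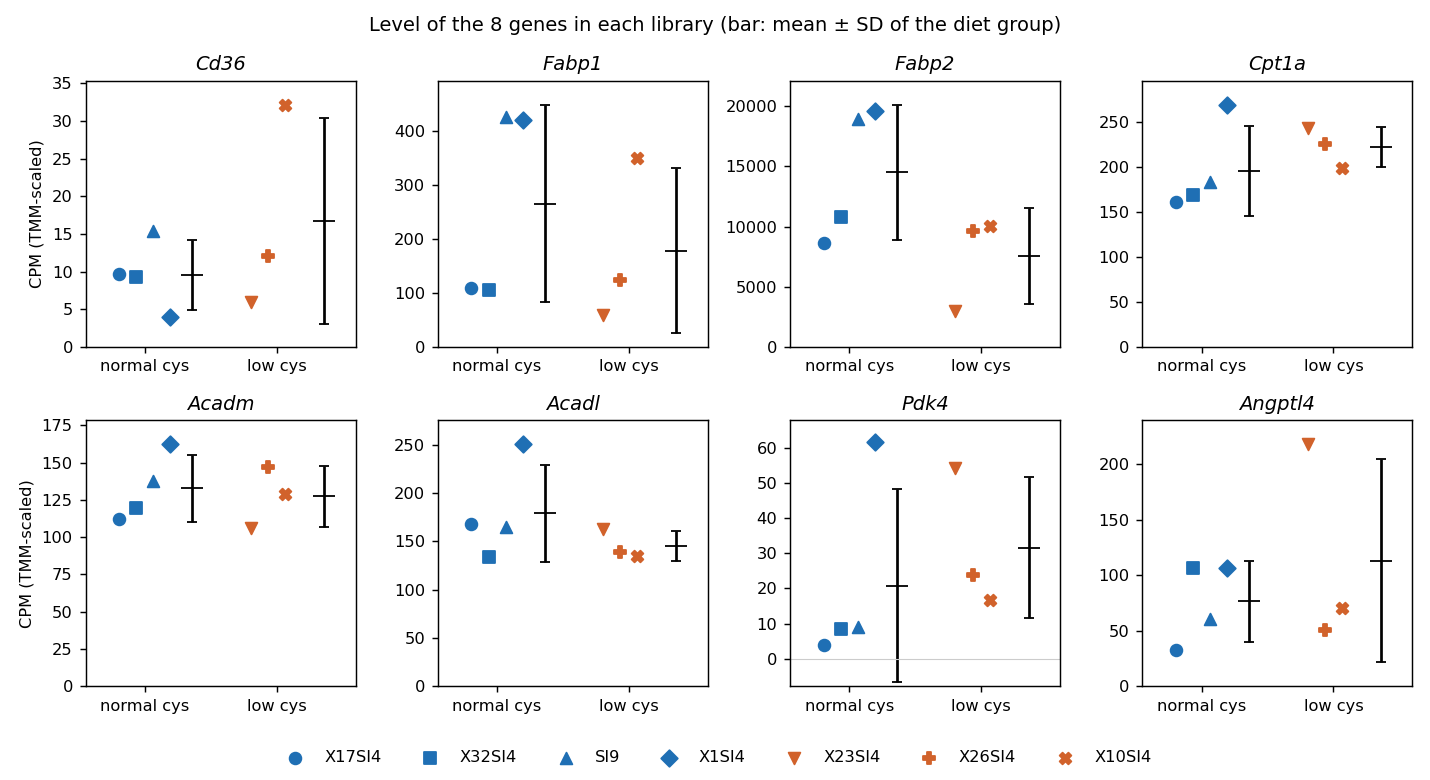
Level of each of the 8 genes (vertical axis, TMM-scaled CPM, a separate scale per panel) in the 4 normal cys (blue) and 3 low cys (orange) libraries, with a marker shape per library and the mean ± SD of the diet beside the points. In all 8 panels the points of the diets overlap, and X1SI4, a normal cys library, is the highest point for Fabp2, Cpt1a, Acadm, Acadl and Pdk4.

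Fatty acid uptake was represented by Cd36, the scavenger receptor and fatty acid translocase of the cell surface (ENSMUSG00000002944, chr5:17781690-17888959). Its level was 9.67, 9.27, 15.4 and 3.97 CPM in normal cys X17SI4, X32SI4, SI9 and X1SI4, and 5.92, 12.1 and 32.1 CPM in low cys X23SI4, X26SI4 and X10SI4. X10SI4 was high and X1SI4 low, and the other low cys libraries lay within the normal cys range. The mean was 9.58 ± 4.67 CPM (SD, n = 4) in normal cys and 16.7 ± 13.7 CPM (SD, n = 3) in low cys. The log2 fold change was 0.80 with a SE of 0.58 (edgeR adjusted p = 0.798), and over the fits without 1 library it ran from -0.09 (without X10SI4) to 1.22 (without X23SI4). At 3.22 CPM per kb Cd36 was the least abundant of the 8, with between 83 and 498 counts per library. Endothelial cells and adipocytes also express Cd36. The 7 blood endothelial markers summed to 6.85, 5.31, 5.52 and 2.10 CPM in normal cys and 7.88, 6.81 and 7.73 CPM in low cys, and Adipoq stood at or under 1.95 CPM. SI9 and X10SI4, the libraries with the highest Cd36, also had the highest sums of the proximal small intestine markers, 953.4 and 677.5 CPM. Lct alone made up 896.8 and 599.0 CPM of these sums. Slc40a1 of the same list was lowest in SI9 (17.35 CPM) and highest in X23SI4 (104.8 CPM). Gata4 was at 38.6 CPM in X17SI4 and 38.5 CPM in SI9. The 6 macrophage markers also had their lowest sum in X1SI4 (9.36 CPM) and their highest in X10SI4 (39.4 CPM). SI9, with the second highest Cd36, was at 27.1 CPM in that sum. The part of endothelial cells, adipocytes, macrophages and position along the gut in the level of Cd36 was not tested.

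Fabp1, the liver-type fatty acid binding protein (ENSMUSG00000054422, chr6:71199827-71205023), averaged 412 CPM per kb. Its levels were 109.7, 105.1, 427.1 and 420.4 CPM in the normal cys libraries X17SI4, X32SI4, SI9 and X1SI4, and 59.1, 124.2 and 350.9 CPM in the low cys libraries X23SI4, X26SI4 and X10SI4. Within each diet there were high and low libraries, 4.06-fold apart in normal cys, where SI9 and X1SI4 were high, and 5.94-fold apart in low cys, where X10SI4 was high. Of these, SI9 and X10SI4 also had the highest sums of the proximal small intestine markers, mostly Lct, and X1SI4 did not. By Slc40a1 of that list SI9 was the lowest library (17.35 CPM), with X1SI4 at 38.9 CPM. The part of position along the gut was not tested. For Fabp1 the log2 fold change was -0.58 with a SE of 0.71 (edgeR adjusted p = 0.846), and over the fits without 1 library it ran from -1.54 (without X10SI4) to -0.14 (without X23SI4), with -0.24 without SI9, -0.27 without X1SI4 and -0.35 without X26SI4.

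Fabp2, the intestinal fatty acid binding protein (ENSMUSG00000023057, chr3:122895072-122899506), had the third highest level per kb of all genes tested, at 11930 CPM per kb. It reached 8650, 10780, 18970 and 19580 CPM in normal cys X17SI4, X32SI4, SI9 and X1SI4, and 2970, 9594 and 10070 CPM in low cys X23SI4, X26SI4 and X10SI4. SI9 and X1SI4 were high, X23SI4 was low, and the other 4 libraries lay close together across the diets. The mean was 14500 ± 5595 CPM (SD, n = 4) against 7545 ± 3970 CPM (SD, n = 3). The log2 fold change of Fabp2 was -0.94 with a SE of 0.46 and a 95% interval from -1.98 to 0.10 (edgeR unadjusted p = 0.0712, adjusted p = 0.794). In the exact permutation test of the diet labels, with 35 arrangements, p was 0.2, where 0.0286 is the smallest value it can give. For the other 7 genes the exact permutation p lay between 0.286 and 0.771. Leaving out 1 library moved the log2 fold change to between -1.21 (without X10SI4) and -0.55 (without X23SI4). By DESeq2 the unadjusted p of Fabp2 was 0.023 and the adjusted p 0.698.

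Beside Fabp2, the sum of the enterocyte markers was lower in every low cys library than in any normal cys library. This held after TMM scaling and not by total counts only. The libraries were not in the same order in both, since X17SI4 had a higher sum than X32SI4, X26SI4 and X10SI4 and a lower level of Fabp2. As a percentage of the sum, Fabp2 stood at 21.9, 28.1, 36.3 and 40.8% in normal cys X17SI4, X32SI4, SI9 and X1SI4, and at 11.9, 27.2 and 26.7% in low cys X23SI4, X26SI4 and X10SI4. SI9 and X1SI4 remained high on this scale and X23SI4 low. The part of enterocyte content in the level of Fabp2 was not tested. Fabp1 on the same scale was 0.278, 0.274, 0.818 and 0.875% in normal cys and 0.237, 0.352 and 0.93% in low cys, with X10SI4 the highest library.

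Entry into the mitochondrion was represented by Cpt1a, the liver-type carnitine palmitoyltransferase 1 (ENSMUSG00000024900, chr19:3323301-3385732). Its levels were 160.9, 169.1, 183.2 and 268.8 CPM in normal cys X17SI4, X32SI4, SI9 and X1SI4, and 243.6, 225.2 and 198.8 CPM in low cys X23SI4, X26SI4 and X10SI4. All low cys libraries exceeded 3 of the normal cys libraries, and X1SI4 exceeded all of low cys. Cpt1a had a log2 fold change of 0.19 with a SE of 0.19 and a 95% interval from -0.25 to 0.62 (edgeR adjusted p = 0.825). Without X1SI4 it was 0.38 with an unadjusted p of 0.019, without X17SI4 it was 0.11, and without X23SI4 0.13. Scaled by total counts only it was 0.34.

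The first step of beta-oxidation was represented by Acadm and Acadl, the medium-chain and long-chain acyl-CoA dehydrogenases. Acadm (ENSMUSG00000062908, chr3:153922357-153944632) was at 111.9, 119.5, 137.4 and 162.1 CPM in normal cys X17SI4, X32SI4, SI9 and X1SI4 and at 106.0, 146.8 and 129.0 CPM in low cys X23SI4, X26SI4 and X10SI4. Its log2 fold change was -0.06 with a 95% interval from -0.44 to 0.32 (edgeR adjusted p = 0.929), and its sign turned to 0.08 when libraries were scaled by total counts only, to 0.05 without X1SI4 and to 0.07 without X23SI4. The libraries were mixed between the diets, and the interval leaves room for a difference of either sign. Acadl (ENSMUSG00000026003, chr1:66830839-66863277) was at 167.9, 133.2, 164.4 and 250.2 CPM in normal cys and at 162.4, 138.4 and 134.6 CPM in low cys. Apart from X1SI4 the Acadl levels of the diets covered a similar range. Between the diets Acadl had a log2 fold change of -0.30 with a SE of 0.21 (edgeR adjusted p = 0.794). It was -0.10 without X1SI4 and -0.14 when libraries were scaled by total counts only. Acadl, at 82.0 CPM per kb, was more abundant than Acadm at 44.5 CPM per kb.

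Pdk4, the kinase that inactivates pyruvate dehydrogenase and so spares glucose when fat is burned (ENSMUSG00000019577, chr6:5483351-5496309), was the most variable of the 8. Its level was 4.02, 8.45, 9.15 and 61.8 CPM in normal cys X17SI4, X32SI4, SI9 and X1SI4, and 54.5, 23.8 and 16.8 CPM in low cys X23SI4, X26SI4 and X10SI4. All 3 low cys libraries lay above 3 of the normal cys libraries and below the remaining one, X1SI4. The mean was 20.9 ± 27.4 CPM (SD, n = 4) in normal cys and 31.7 ± 20.1 CPM (SD, n = 3) in low cys. The log2 fold change was 0.61 with a SE of 0.87 and a 95% interval from -1.39 to 2.61 (edgeR adjusted p = 0.862). Without X1SI4 it was 2.14 with a SE of 0.52 (unadjusted p = 0.00516, edgeR adjusted p = 0.811), and without X23SI4 it was -0.03. Without X17SI4, X32SI4 or SI9 it lay between 0.27 and 0.37. By limma-voom, with all libraries, it was 1.27 with a SE of 0.77, against -1.02 for Fabp2 in that fit. The size of the Pdk4 difference thus depended on a single library in either diet and on the model.

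Angptl4, a secreted inhibitor of lipoprotein lipase that fasting and fatty acids induce (ENSMUSG00000002289, chr17:33773750-33781575), was at 32.8, 106.6, 60.3 and 106.5 CPM in normal cys X17SI4, X32SI4, SI9 and X1SI4. In low cys it was at 217.7, 50.5 and 70.7 CPM in X23SI4, X26SI4 and X10SI4. X23SI4 was the highest of all libraries, and the others in low cys lay inside the normal cys range. For Angptl4 the log2 fold change was 0.56 with a SE of 0.56 (edgeR adjusted p = 0.821), and over the fits without 1 library it ran from -0.32 (without X23SI4) to 0.94 (without X26SI4), with 0.31 without X17SI4.

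**Figure D2:**
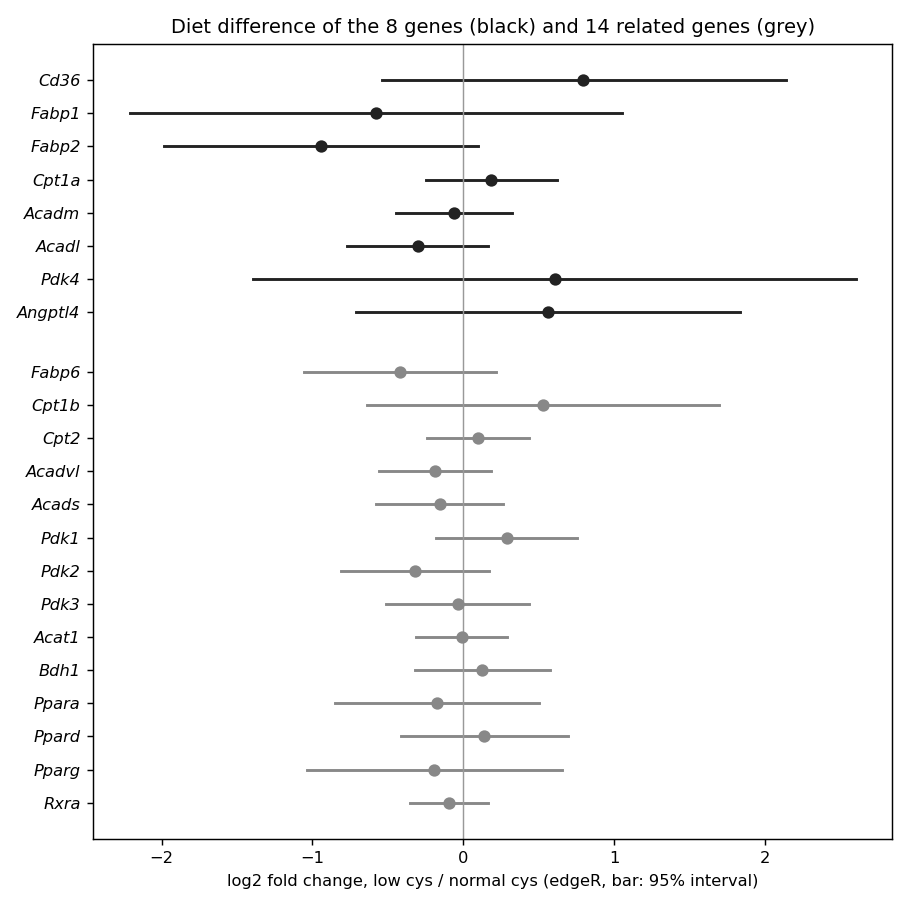
Log2 fold change of low cys over normal cys (horizontal axis, edgeR, bars are 95% intervals) of the 8 genes in black and of 14 related genes in grey: close relatives of the 8, ketone body genes and receptors. All 8 black intervals cross 0, the widest being that of Pdk4 from -1.39 to 2.61.

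The levels of some of the 8 genes followed each other across mice. Cpt1a and Pdk4 had the same order in all 7 libraries, from X17SI4, the lowest, through X32SI4, SI9, X10SI4, X26SI4 and X23SI4 to X1SI4, the highest. Pearson's r between their log2 CPM was 0.98 (exact permutation p = 0.000794, adjusted over 28 pairs p = 0.0222) and Spearman's rho was 1 (exact permutation p = 0.000397, the smallest value possible, adjusted p = 0.0111). Leaving out the 2 libraries farthest from the median gave an r of 0.967, and r of the deviations from the diet means was 0.977. The relation was therefore present within the diets as well as across them. The 2 genes differed in range, since Pdk4 varied 15.4-fold and Cpt1a 1.67-fold between the same libraries. Some genes outside the 8 had a higher r still, namely Rfx7 (0.991), Fam48a (0.989) and Evi5 (0.982) with Cpt1a. With Pdk4 these were Evi5 (0.987) and Rfx7 (0.983). Among so many genes high values of r arise by selection.

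**Figure D3:**
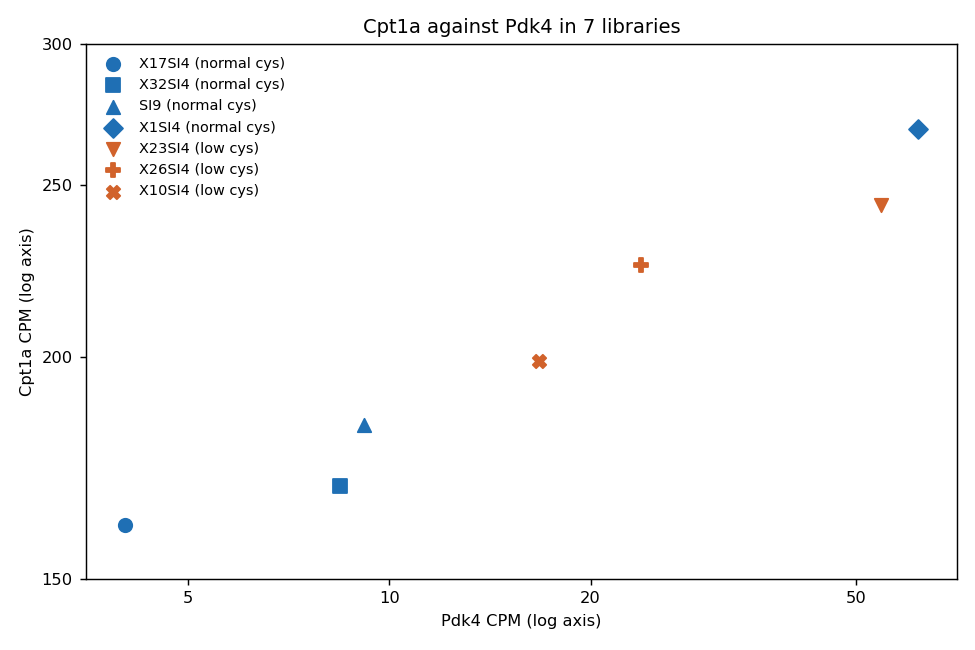
Level of Cpt1a (vertical axis) against that of Pdk4 (horizontal axis) in 7 libraries, both in CPM on a log scale, with blue for normal cys, orange for low cys and a marker shape per library. Cpt1a is higher at each step up in Pdk4 from X17SI4 to X1SI4 (r = 0.98). The low cys points lie together, above X17SI4, X32SI4 and SI9 and below X1SI4.

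Fabp1 and Fabp2 had the next highest r, 0.841 (exact permutation p = 0.00397, adjusted p = 0.0556) and a rho of 0.75 (adjusted p = 0.464). The r of this pair was 0.659 without the 2 libraries farthest from the median and 0.876 within diets. Fabp2 and Acadm had an r of 0.775 (exact permutation p = 0.0329, adjusted p = 0.307), with an r of 0.397 without the 2 farthest libraries and 0.883 within diets. Within diets Cpt1a and Acadl had an r of 0.894, and Fabp1 and Acadm had a rho of 0.786 over all libraries, so the order of the pairs after the first depended on the measure. Of the 28 pairs 18 had a positive and 10 a negative r, and 1 pair, Cpt1a and Pdk4, had an adjusted p under 0.05. The binding proteins and Pdk4 were not closely related, with an r of 0.04 for Fabp1 and -0.21 for Fabp2. Cd36 had its most negative r with Acadl, at -0.71 (exact permutation p = 0.0843, adjusted p = 0.394). That r was -0.08 without the 2 farthest libraries and -0.66 within diets. Within diets the r of Cd36 was more negative with Pdk4 (-0.75) and Cpt1a (-0.74). The 8 genes did not vary as 1 block across the mice.

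**Figure D4:**
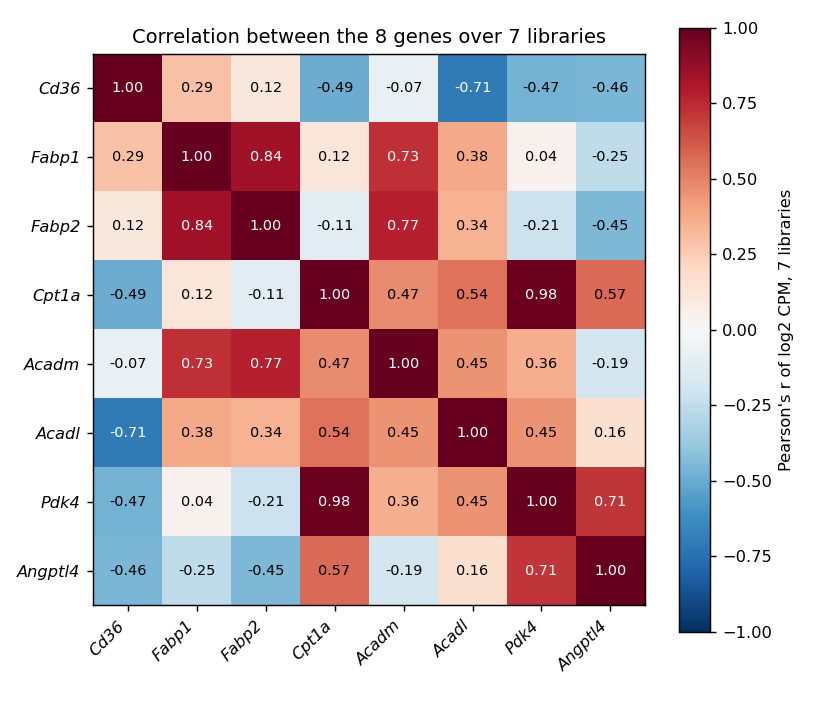
Pearson's r between the log2 CPM of each pair of the 8 genes over 7 libraries, with red for positive and blue for negative values and r printed in each cell. Cpt1a with Pdk4 (0.98) and Fabp1 with Fabp2 (0.84) are the darkest red cells off the diagonal.

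X1SI4 had the highest level of 5 of the 8 genes and the lowest of Cd36. X17SI4 had the lowest level of Cpt1a, Pdk4 and Angptl4. X23SI4 had the highest Angptl4 and the lowest Fabp1, Fabp2 and Acadm. X1SI4 also stood apart in other cell types, with 37.3 CPM for the sum of the B and plasma cell markers against 109.0 to 113.3 CPM in the other normal cys libraries. The part of cell composition in the levels of X1SI4 was not tested.

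Ketone bodies are made from acetyl-CoA in the mitochondrion and burned again in other tissues. Acat1, the thiolase that joins 2 acetyl-CoA, stood between 52.6 and 73.4 CPM in all libraries, and Bdh1, which reduces acetoacetate, between 40.9 and 72.7 CPM. Their log2 fold changes were -0.01 and 0.13. Both were lowest in X1SI4, the library with the highest Cpt1a and Pdk4. Of the 8 genes for ketogenesis and ketone use reported here 6 were tested, 5 higher and 1 lower in low cys, with 0 at an unadjusted p under 0.05 and a median log2 fold change of 0.14. The median was 0.03 without X1SI4 and 0.06 without X10SI4. The gene most abundant per kb in that list was Oxct1, the transferase that lets cells burn ketones, with 37.6 CPM per kb and a log2 fold change of 0.32. Aacs, which activates acetoacetate in the cytosol, had a log2 fold change of 0.23.

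Ppara, Ppard, Pparg and Rxra were detected in every library, as was Rxrb, at 26.1 to 32.6 CPM, while Rxrg had counts in X32SI4 and X26SI4 only. Ppara was at 15.1, 18.2, 17.4 and 36.6 CPM in normal cys X17SI4, X32SI4, SI9 and X1SI4 and at 21.3, 20.3 and 16.4 CPM in low cys X23SI4, X26SI4 and X10SI4, so that X1SI4 was again the high library. Ppard ranged from 98.5 to 205.0 CPM, Rxra from 167.9 to 201.5 CPM and Pparg from 1.93 to 5.54 CPM. Their log2 fold changes were -0.17 for Ppara, 0.14 for Ppard, -0.09 for Rxra and -0.19 for Pparg, with adjusted p-values from 0.841 to 0.895 by edgeR. Per kb Ppard (30.3 CPM) and Rxra (34.97 CPM) were more abundant than Ppara (5.41 CPM).

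Among the 15 tested genes of the regulator list 9 were higher and 6 lower. Creb3l3, a liver and gut transcription factor that works with PPAR-alpha on fasting genes, was at 240.7, 391.6, 593.3 and 595.2 CPM in normal cys X17SI4, X32SI4, SI9 and X1SI4, and at 135.0, 295.2 and 313.3 CPM in low cys X23SI4, X26SI4 and X10SI4. Low cys X26SI4 and X10SI4 lay between normal cys X17SI4 and X32SI4, and X23SI4 was the lowest. The log2 fold change of Creb3l3 was -0.88 with a SE of 0.38 (unadjusted p = 0.0466, edgeR adjusted p = 0.794). Ppargc1b, a coactivator of the receptors, had a log2 fold change of 0.39 at 1.65 CPM per kb.

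The wider set held 134 genes in 9 lists beside the 8 genes, of which 113 were tested. Of these 67 (59.3%) were lower and 46 higher in low cys, against 48.8% lower among all genes tested. This lean rested on X1SI4, since without it 50 of 113 (44.2%) were lower, against 48.5% of all genes. At an unadjusted p under 0.05 there were 2 of the 113, Acsl4 and Creb3l3, against 5.49% of all genes tested. None had an adjusted p under 0.05 by edgeR. Libraries of the diets did not overlap for 1 of the 113, Acadsb, against 6.83% of all genes tested. Without X17SI4 16 of the 113 (14.2%) had an unadjusted p under 0.05, against 11.9% of all genes. The count was 0 of 113 without SI9 and 0 of 115 without X23SI4, where all genes stood at 2.73% and 1.71%. It was 4 of 116 (3.45%) without X26SI4 and 5 of 113 (4.42%) without X1SI4, where all genes stood at 6.3% and 5.65%. Scaling by total counts alone moved the median log2 fold change of all genes from 0.01 to 0.15 and that of the lists by a similar amount, so the signs near 0 depend on the scaling.

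In the list for uptake, binding and activation 15 of 20 genes were tested, with 7 higher and 8 lower and a median log2 fold change of -0.04. Over the fits without 1 library the median ran from -0.15 (without X17SI4) to 0.11 (without SI9), and it was also above 0 without X1SI4 (0.05) and X26SI4 (0.07). Acsl4, an acyl-CoA synthetase that prefers arachidonic acid, was at 1.72, 2.45, 2.26 and 3.34 CPM in normal cys and 3.71, 5.25 and 3.29 CPM in low cys, a log2 fold change of 0.73 (unadjusted p = 0.0356, edgeR adjusted p = 0.794). It was among the scarcer genes, at 0.582 CPM per kb. Slc27a4, the main fatty acid transport protein of enterocytes, had 1057, 1164, 1419 and 1386 CPM in normal cys and 535.2, 1071 and 1002 CPM in low cys, a log2 fold change of -0.53 (unadjusted p = 0.0607). X23SI4 had the lowest level of Slc27a4, as of both binding proteins. Fabp6, the relative of Fabp1 and Fabp2 that binds bile acids, ranged from 2848 to 7454 CPM with a log2 fold change of -0.42.

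In the carnitine shuttle 3 of the 7 tested genes were higher and 4 lower (median -0.06). Without X1SI4 4 were higher and 3 lower with a median of 0.18, and without X10SI4 the median was -0.28. Cpt2, the partner of Cpt1a on the inner membrane, was at 113.9 to 170.4 CPM with a log2 fold change of 0.10. Slc25a20, the carnitine-acylcarnitine carrier, had the highest level per kb of the list (91.5 CPM) and a log2 fold change of -0.06. Crat, carnitine acetyltransferase, had a log2 fold change of -0.45 (unadjusted p = 0.0636). Slc22a5, the carnitine transporter of the cell surface, had one of -0.33, with 26.3% of its 50-base stretches shared with other genes. Cpt1b, the muscle-type enzyme, stayed at or under 1.18 CPM and shared 78.6% of its stretches, so its value is uncertain.

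In mitochondrial beta-oxidation 15 of 20 genes were lower and 5 higher, none with an unadjusted p under 0.05, and the median log2 fold change was -0.08. Acadvl and Acads, the very-long-chain and short-chain relatives of Acadl and Acadm, had log2 fold changes of -0.19 and -0.16. Hadh, the dehydrogenase of the third step, was the most abundant per kb (110.2 CPM) with a log2 fold change of -0.27, and Hsd17b10 had one of 0.19. Acadsb, which acts on branched short chains, was at 4.59 to 5.64 CPM in normal cys and 5.80 to 6.25 CPM in low cys, a log2 fold change of 0.27 (edgeR adjusted p = 0.794). Without X1SI4 9 of the 20 genes were lower and 11 higher, with a median of 0.02. Without X17SI4 the median was -0.15, with 3 of the 20 genes at an unadjusted p under 0.05, where all genes stood at 11.9%. The median was -0.03 without X23SI4.

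In the peroxisomal list 14 of 16 tested genes were lower and 2 higher, with a median log2 fold change of -0.27 and 0 at an unadjusted p under 0.05. Acaa1a, a peroxisomal thiolase, and Scp2, the sterol carrier protein and thiolase, had log2 fold changes of -0.40 and -0.44, with 12.9% and 29.7% of their stretches shared with other genes. Acaa1b, the other thiolase of this kind, had one of -0.83 with a SE of 0.47 (unadjusted p = 0.111, edgeR adjusted p = 0.794) and shared 30.5% of its stretches, so the values of all 3 are uncertain. Its level was 53.2, 81.5, 128.1 and 236.1 CPM in normal cys X17SI4, X32SI4, SI9 and X1SI4 and 49.8, 81.2 and 79.4 CPM in low cys X23SI4, X26SI4 and X10SI4, with X1SI4 again the highest. Without X1SI4 11 of the 16 genes were lower, and the median ran from -0.37 to -0.12 over the fits without 1 library. The enterocyte markers were also lower in low cys, 10 of 10 on average, and their part in the counts of this list was not tested.

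**Figure D5:**
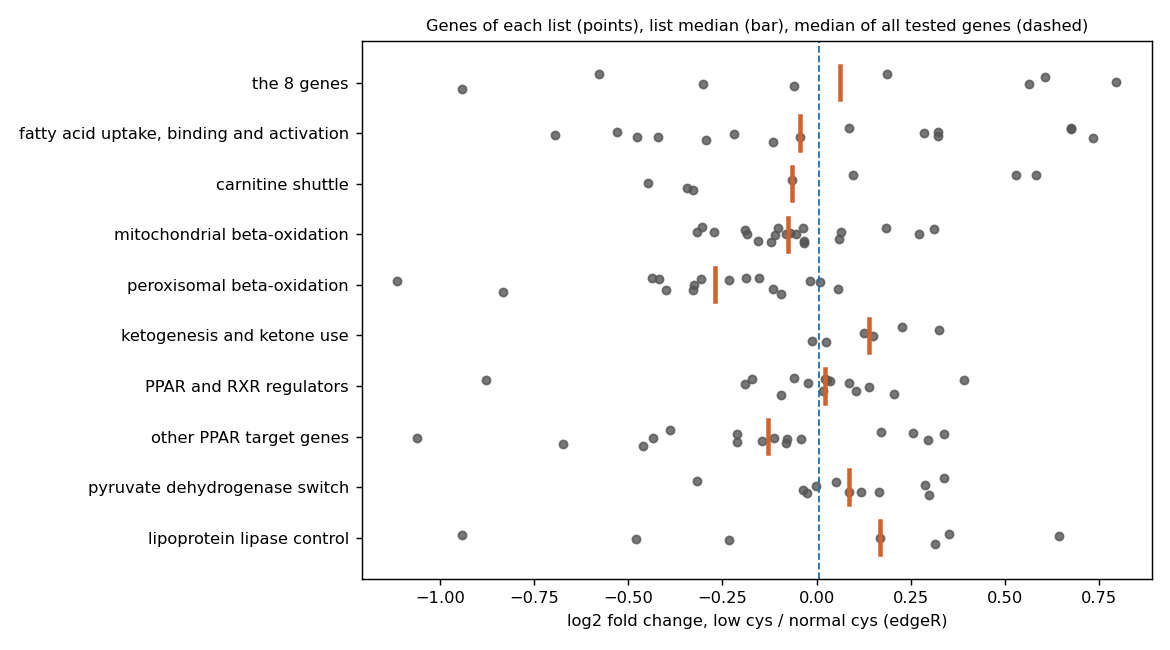
Log2 fold change of low cys over normal cys (horizontal axis, edgeR) of every tested gene in each list, with a bar for the list median and a dashed line for the median of all genes tested (0.01). The 8 genes spread from -0.94 to 0.80, and the peroxisomal list has its median at -0.27.

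Of the other PPAR target genes 4 of the 16 tested were higher and 12 lower, with a median of -0.13, and without X1SI4 9 were higher and 7 lower. Over the fits without 1 library the median ran from -0.25 (without X17SI4) to 0.01 (without X1SI4). Txnip, a thioredoxin-binding protein that responds to glucose, was the most abundant per kb (164.9 CPM) with a log2 fold change of -0.08. Cidec, a lipid droplet protein, had a log2 fold change of -0.67 (unadjusted p = 0.0554) and Abhd5, the coactivator of fat breakdown, one of -0.39.

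Of the genes around pyruvate dehydrogenase, the target of Pdk4, 7 of 11 were higher and 4 lower (median 0.09). The other kinases did not share the range of Pdk4. Pdk1 ran from 17.7 to 31.3 CPM, Pdk2 from 65.3 to 125.9 CPM and Pdk3 from 22.98 to 41.2 CPM, with log2 fold changes of 0.29, -0.32 and -0.04. Dld, the dehydrogenase subunit shared with other complexes, had a log2 fold change of 0.12 and Pdpr, which regulates the phosphatase, one of 0.34.

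Of the genes that act on lipoprotein lipase beside Angptl4, 4 of 7 tested were higher and 3 lower (median 0.17). The sign of this median depended on single libraries, being -0.02 without X32SI4, X1SI4 or X23SI4 and -0.07 without X26SI4. Lmf1, which helps the lipase to fold, had a log2 fold change of 0.31 and Apoc3, an inhibitor of the lipase, one of -0.94 with a SE of 0.60 (edgeR adjusted p = 0.794). Apoc2, its activator, was the most abundant per kb (216.6 CPM) but shared 78.3% of its stretches with other genes.

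Markers of other cells a scraping can hold were read in the same libraries. The B and plasma cell markers, with Jchain the largest term of the sum, came to 109.0, 113.3, 109.7 and 37.3 CPM in normal cys. In low cys they summed to 149.9, 220.0 and 207.3 CPM. The stroma markers, with Dcn the most abundant per kb, summed to 8.94, 5.54, 6.83 and 4.11 CPM in normal cys. In low cys they summed to 11.8, 18.6 and 15.4 CPM. Both sums were higher in every low cys library than in any normal cys library. The goblet cell markers averaged 12130 ± 3569 CPM against 9532 ± 241 CPM, the Paneth cell markers 2513 ± 1619 CPM against 4231 ± 1237 CPM, and the crypt and proliferation markers 206 ± 97.7 CPM against 298 ± 86.3 CPM (mean ± SD of 4 normal cys and 3 low cys libraries). These sums overlapped between the diets, with X1SI4 the highest of all in goblet cell markers and the lowest in Paneth cell and crypt markers.

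The remaining sums also overlapped. The means in normal cys and low cys were 145 and 147 CPM for enteroendocrine cells, 24.7 and 33.5 CPM for macrophages and 119 and 90.1 CPM for T cells. They were 15.5 and 16.2 CPM for erythrocytes, 6.57 and 19.4 CPM for smooth muscle and 4.95 and 7.47 CPM for blood endothelial cells. X26SI4 carried most of the low cys mean for smooth muscle, at 38.25 CPM against 5.63 CPM in X23SI4 and 14.4 CPM in X10SI4. The adipocyte list stood at 174 and 127 CPM, most of it Lipe and Cidec, while Adipoq and Plin1, which define the cell, did not exceed 1.95 and 0.261 CPM and Lep and Retn were at 0 in at least 1 library.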

How the data were processed

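The authors deposited raw read counts per gene for 7 libraries, made from poly(A) RNA with a stranded kit and paired-end reads of 50 bases. RNA was purified on columns of either of 2 makers, and which was used for which library is not given in the sources used here. Per the methods and labels, reads were trimmed with Trim Galore 0.6.5 and checked with FastQC 0.11.8, ribosomal reads were removed, and the rest were aligned to GRCm38 with STAR and counted with featureCounts. The strand setting of the counting and its handling of multiply mapped reads are not given in the sources used here, so genes that share sequence are marked as uncertain. Counts were analysed as deposited, and 0 columns of values were left unmapped to a sample.

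Genes were filtered by expression (minimum count 10, minimum total 15), scaled by TMM and tested by the robust quasi-likelihood test of edgeR 4.0.16 in R 4.3.3, low cys against normal cys, with Benjamini-Hochberg adjustment over 14869 genes. Intervals are 95%. DESeq2 1.42.0 and limma 3.58.1 were alternatives. The scripts were tested on simulated data. Log2 CPM used a prior count of 2. The biological coefficient of variation was 25.5%. No pair of libraries within a diet was a duplicate, and pairs across the diets were not compared. Mice are separate animals, and no batch is given in the labels. Exact tests are two-sided, on the difference of mean log2 CPM. The share of a gene's exon in 50-base stretches found in another gene was read from GENCODE transcripts.

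The 8 genes and all lists were chosen with earlier results of these data known. Named in the text are the 8 genes and, in each list, the gene most abundant per kb of exon and the 2 with the smallest p. Ketone body genes, the receptors, close relatives and the 5 genes most like the mean of the 8 are named too. So are some markers and the genes with a higher r to Cpt1a or Pdk4 than these had to each other. Some genes of the lists are not reported here and were left out of the lists, their counts and the rule. Of the 236 genes left in the pathway and marker lists all were found, 8 under another name.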

Additional observations from a re-analysis of the deposited data

Results flagged for a closer look

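In 60 sets of 4 normal cys libraries, 3 had 1 library far from the rest by Dixon's gap over range at the 95% level, where chance gives about 1 in 20, or 3. Pdk4 had a ratio of 0.911, with X1SI4 at 61.8 CPM above the other 3, and Ppara had a ratio of 0.856, with X1SI4 at 36.6 CPM. The B and plasma cell markers had a ratio of 0.943, with X1SI4 at 37.3 CPM below the rest.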

How the results depend on the processing

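The count of all genes with an adjusted p under 0.05 was 0 by edgeR and 16 by DESeq2, and between 0 and 1 in the fits without 1 library. The count at an unadjusted p under 0.05 was 817, and between 258 (without X23SI4) and 1763 (without X17SI4) in those fits, with 403 without SI9 and 522 without X10SI4. Of the 8 genes 0 had an unadjusted p under 0.05, and 1 by DESeq2 (Fabp2), with between 0 and 2 in the fits without 1 library: Fabp2 without X17SI4, Cpt1a and Pdk4 without X1SI4, and Cd36 without X23SI4. None of these reached an adjusted p under 0.05.

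Signs turned for Cd36 (-0.094 without X10SI4), Acadm (0.0829 by total library size, 0.05 without X1SI4 and 0.0658 without X23SI4), Pdk4 (-0.0307 without X23SI4) and Angptl4 (-0.32 without X23SI4), and the cause was not tested. Without 1 library the log2 fold change ranged from -0.09 to 1.22 for Cd36, -1.54 to -0.14 for Fabp1, -1.21 to -0.55 for Fabp2, 0.11 to 0.38 for Cpt1a, -0.15 to 0.07 for Acadm, -0.40 to -0.10 for Acadl, -0.03 to 2.14 for Pdk4 and -0.32 to 0.94 for Angptl4. By limma-voom Pdk4 was 1.27. Fabp1, Fabp2, Cpt1a and Acadl kept their sign in every alternative run. The lowest counts of the 8 genes were 77 (Pdk4 in X17SI4) and 83 (Cd36 in X1SI4), and the part of depth in the precision was not tested.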

Other observations

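Over 7 libraries and 14861 genes outside the 8, the genes whose log2 CPM was most like the mean standardized level of the 8 were Strap (r = 0.997), Kcnj8 (0.985), Scd1 (0.982), Tmem80 (0.98) and 2610008E11Rik (0.98). Scd1, the stearoyl-CoA desaturase, was at 23.4, 40.02, 91.95 and 195.9 CPM in normal cys X17SI4, X32SI4, SI9 and X1SI4, and at 35.9, 64.6 and 74.6 CPM in low cys X23SI4, X26SI4 and X10SI4. X1SI4 was the highest and X17SI4 the lowest library for each of these genes, as for the mean of the 8. Among so many genes and 7 libraries high values of r arise by selection, so these are a description.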
